A study of Homo sapiens with 6 samples.

Results

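The Schlafen gene cluster on chromosome 17 was examined in peak lists of ATAC-seq, an assay in which a transposase cuts accessible DNA and tags it for sequencing. All peaks that met the interval 33560000 to 33890000 of chromosome 17 in hg19 were taken, an interval of 330 kb that holds SLFN5, SLFN11, SLFN12, SLFN13, SLFN12L and SLFN14. Merged over 6 libraries, these peaks formed 12 regions out of 32037 in the whole series. The cells were CCRF-CEM, a human leukaemia cell line of T lymphoblasts. Its parent form is wild-type and expresses SLFN11. The other line, whose library codes all share 1 prefix, carries a knockout of that gene. How the knockout was made is not stated in the labels. Both lines received either DMSO, which is the solvent, or camptothecin at 100 nM, which traps topoisomerase I on DNA. Exposure to camptothecin lasted 2 h or 4 h. Each of the 6 groups had 1 library, so treatment effects within a genotype have no test, and clone and genotype cannot be told apart.

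Libraries are named here by the treatment that their code has in the sample titles. The lists are recorded under other samples of the same genotype: the code and the recorded sample agreed for 0 of 3 parent and 0 of 3 knockout lists. By the recorded samples, the parent and knockout lists named DMSO here are those of 4 h camptothecin, those named 2 h are DMSO, and those named 4 h are 2 h. Genotype does not depend on this, and treatment comparisons are given for both placements.

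Schlafen genes encode proteins that share an N-terminal core domain, and several of them are induced by interferon. SLFN11 is recruited to stressed replication forks, blocks further replication there and makes cells more sensitive to agents that damage DNA. It also cleaves transfer RNAs, and its loss in tumour cells is linked to drug resistance. SLFN5 is a nuclear protein that restricts some DNA viruses, SLFN12 is a ribonuclease that certain small molecules activate through the phosphodiesterase PDE3A, SLFN13 cleaves transfer and ribosomal RNA, and SLFN14 is a ribosome-associated ribonuclease important for platelets.

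No hg19 annotation was used here, so regions were placed only against the body of SLFN11, taken as about 33677000 to 33701000 on the minus strand. Its 5′ end is thus near 33701000 and reads toward lower positions. In the gene order of RefSeq on GRCh38.p14, SLFN5 lies on the lower side of SLFN11, and SLFN12, SLFN13, SLFN12L and SLFN14 follow on the upper side in that order. Regions are therefore called SLFN5-side or SLFN12-side and given by the distance of their middle from the 5′ end of SLFN11. Exons and introns were not assigned.

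The promoter of SLFN11 is shown because SLFN11 is the gene knocked out in the study and a peak lay at its 5′ end in every library. RefSeq promoters, from 250 bases before to 50 after a gene's start, were matched for 3 of the 6 genes, SLFN11, SLFN12 and SLFN12L. That of SLFN11 lies on the minus strand at chr17:35373572-35373871 of GRCh38.p14, a build whose positions cannot be compared with those of the peaks. It is written 5′ to 3′, and the capitals mark a match to TTCNNNGAA, the site of STAT factors, and one to CCAAT on the reverse strand.
SLFN11: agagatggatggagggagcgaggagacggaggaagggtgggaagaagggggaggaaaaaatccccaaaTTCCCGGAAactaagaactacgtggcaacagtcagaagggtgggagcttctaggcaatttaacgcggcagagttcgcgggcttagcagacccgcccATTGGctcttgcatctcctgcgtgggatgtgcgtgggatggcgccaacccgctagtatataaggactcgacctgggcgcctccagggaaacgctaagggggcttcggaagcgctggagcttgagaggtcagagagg
The STAT-type match began 182 bases upstream of the start, and 7.66% of 35116 promoters of this length held at least 1 such match on either strand. The CCAAT match began 86 bases upstream, and 34.6% of promoters held one. GGAA, the core of ETS sites, was matched 7 times on both strands together, 2 of them inside the STAT-type match, and 8.29% of promoters held as many. The promoter of SLFN12L held 1 match to GAAANNGAA, the core of interferon-stimulated response elements, which 8.11% of promoters held, and that of SLFN12 held 1 match to the AP-1 site TGANTCA, which 7.71% held. The matches marked for SLFN11 are not particular to it, since the SLFN12L promoter held 2 matches to TTCNNNGAA and the SLFN12 promoter 1 to CCAAT. Searches for the exact strings TGACGTCA, TATAAA and CACGTG gave 0 matches in the promoters of these genes. Variants, such as other TATA-type sequences, were not searched, so such elements are not shown to be missing. G and C made up 58.0% of the SLFN11 promoter, near the median of 58.7% over all promoters, against 53.3% for SLFN12 and 43.0% for SLFN12L. These matches describe the letters of the reference and not binding in these cells.

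Peak number and signal of each library were read from the lists themselves. They held between 14205 merged peaks (parent DMSO) and 23665 (parent 2 h). The reads stacked at a summit, called summit pileup here, were recovered from each peak's deposited fold enrichment and p. The lowest listed pileup was 8 reads in each library, and the lowest background was between 1.22 and 1.37 reads. Over the 11070 regions listed in all 6 libraries, the median pileup was 20, 49 and 59 reads in parent DMSO, 2 h and 4 h, and 26, 30 and 24 reads in their knockout counterparts. Parent DMSO and the other parent libraries thus stood further apart than the knockout libraries did, and pileups are given both as reads and divided by this median (scaled pileup). The lowest background varied less between libraries than the median pileup did. How much of the difference in median pileup came from read depth was not tested.

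Within the Schlafen window, 4 peaks were listed in parent DMSO, 10 in parent 2 h and 5 in parent 4 h. The knockout libraries listed 5, 6 and 6 peaks. In the order DMSO, 2 h and 4 h, the parent peaks covered 1123, 4903 and 3640 bp and the knockout peaks 1707, 2521 and 1537 bp. Parent 2 h therefore had the most peaks and parent DMSO the fewest, and only parent 2 h (3 peaks), parent 4 h (3 peaks) and knockout 2 h (2 peaks) had peaks with several summits. Parent DMSO held 33.3% of the 12 window regions and 43.3% of all regions, parent 2 h 83.3% and 72.9%, and parent 4 h 41.7% and 66.8%. The knockout libraries held 41.7%, 50% and 50% of the window regions and 58.9%, 63.8% and 58.3% of all regions. The adjacent intervals of the same length held 10 regions on the lower side and 8 on the upper side. Between 6 and 9 peaks per library were listed in the lower flank and between 4 and 7 in the upper one, and the window held fewer peaks than the lower flank in 5 of the 6 libraries. Parent 2 h was the exception, with 10 peaks in the window and 8 in the lower flank.

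**Figure D1:**
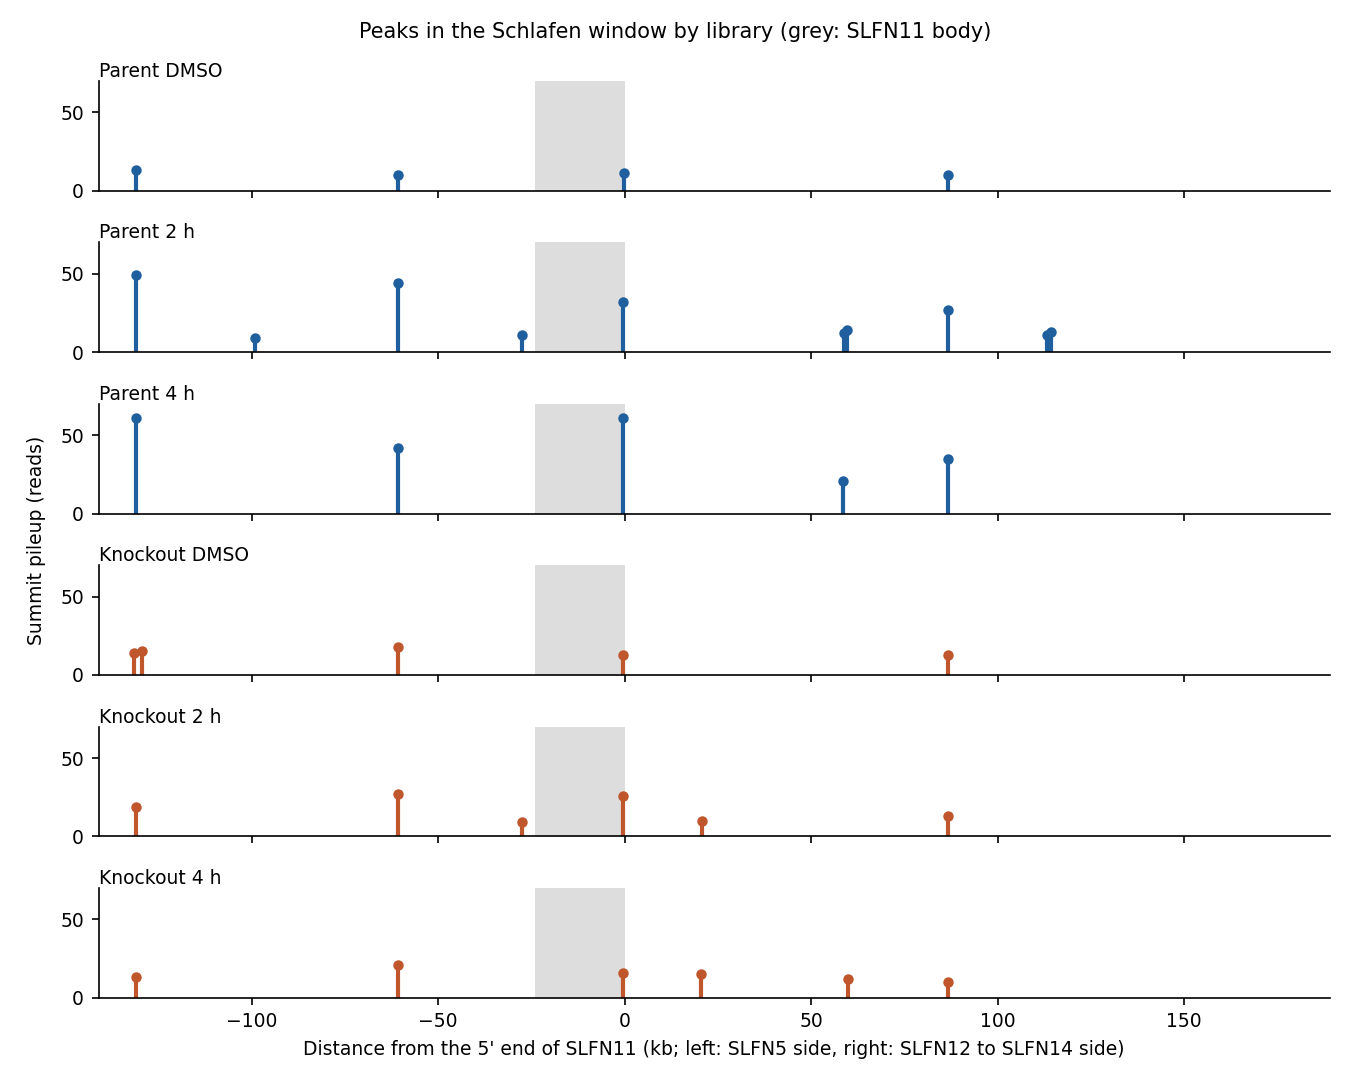
Summit pileup in reads (y axis) against distance from the 5′ end of SLFN11 in kb (x axis) for every peak of the window, 1 panel per library, parent in blue and knockout in orange; stems mark the highest summit of a peak and grey marks the body of SLFN11. The same 4 regions carry a peak in all 6 panels, parent 2 h lists 10 peaks, and the body of SLFN11 holds a peak only at its 5′ end.

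Sharing among libraries fell into 3 classes. Of the 12 regions, 4 were listed in all 6 libraries (33.3%, against 34.6% of all regions), 4 in 2 libraries (33.3%, against 12.2%) and 4 in 1 library (33.3%, against 27.3%). None was listed in 3, 4 or 5 libraries, classes that together held fewer regions of the series than the shared class. The 4 shared regions were the 5′ end of SLFN11, 2 regions on the SLFN5 side at 131 kb and 60.8 kb, and 1 region on the SLFN12 side at 86.7 kb.

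The gene targeted in the knockout was looked at first. A peak at the 5′ end of SLFN11 was listed in all 3 parent and all 3 knockout libraries, within a region of 1163 bp at 33699846 to 33701008. The rest of the gene body held none. A peak at the 5′ end does not test the knockout, since a small change in the coding sequence need not alter accessibility there. The summit pileup was 11 reads in parent DMSO (95% Poisson interval 5.49 to 19.7), 32 in parent 2 h (21.9 to 45.2) and 61 in parent 4 h (46.7 to 78.4). In knockout cells it was 13 reads in DMSO (6.92 to 22.2), 26 at 2 h (17 to 38.1) and 16 at 4 h (9.15 to 26.0). These intervals, like all others here, cover counting error only. Parent 4 h was the highest and parent DMSO the lowest, and the genotypes overlapped. The parent intervals at DMSO and at 4 h did not meet, whereas those of the 3 knockout libraries all overlapped. This contrast is in unscaled reads. The median pileup over shared regions was also 20 in parent DMSO and 59 in parent 4 h, against 26, 30 and 24 in the knockout libraries.

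After scaling, the level at the 5′ end of SLFN11 was 0.550, 0.653 and 1.03 times the library median in parent DMSO, 2 h and 4 h, and 0.5, 0.867 and 0.667 times in the knockout libraries. The range of 11 to 61 reads in parent cells thus narrowed, because the median of all shared regions was also higher in parent 2 h and 4 h than in parent DMSO. Ranked by the authors' fold enrichment within its own list, the peak exceeded 31.3%, 30.5% and 67.7% of the listed peaks in parent cells and 24%, 76.6% and 40.4% of those in knockout cells. It was therefore an ordinary peak in each list and not among the highest.

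Peak extent at the 5′ end of SLFN11 differed more than summit position. The peak measured 447, 1086 and 1163 bp in parent DMSO, 2 h and 4 h and 180, 560 and 399 bp in the knockout libraries. The highest summit lay 297, 505 and 455 bp below position 33701000 in parent cells and 423, 337 and 406 bp below it in knockout cells. All highest summits were thus within 505 bp of the approximate gene start. Since that start is only approximate, whether these summits lie inside the gene or before its start was not determined. Parent 2 h listed 5 summits, of 23, 27, 32, 29 and 30 reads from the inner to the outer end of the peak, and parent 4 h listed 2, of 32 and 61 reads. The inner summits, 797 to 966 bp below position 33701000, were listed only in these 2 libraries, and the peaks of the other 4 libraries ended before them. Local background at the highest summit was 5.44 reads in parent 2 h and 5.94 in parent 4 h, against 1.47 to 2.52 reads in the other 4 libraries.

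**Figure D2:**
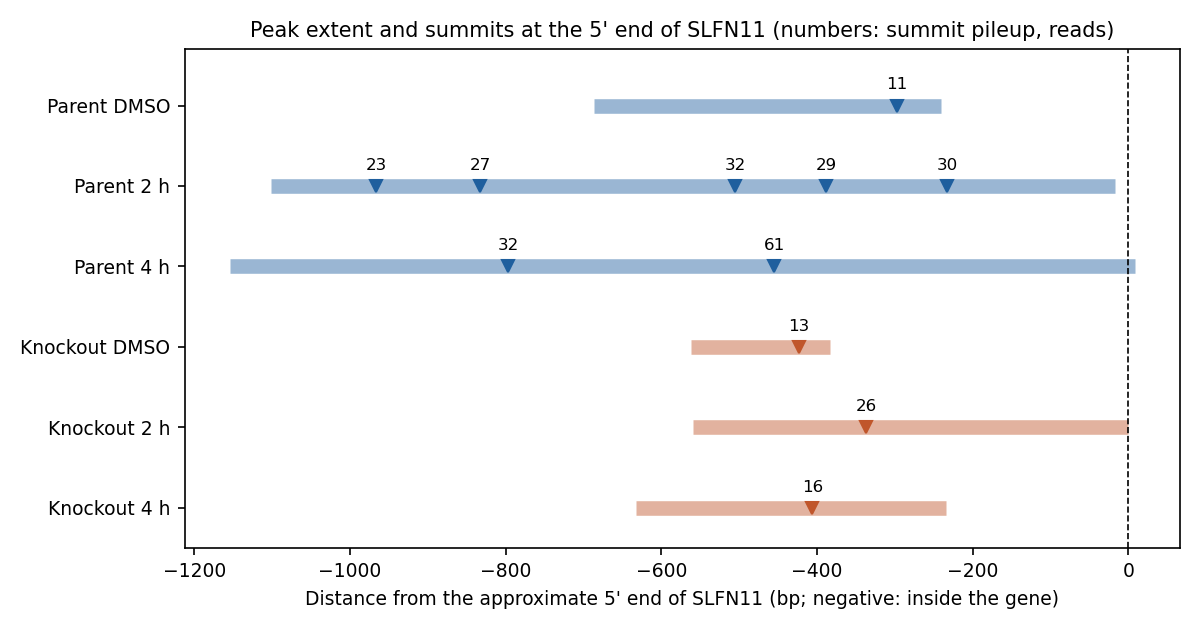
Extent of the peak (bars) and its summits (triangles, with the summit pileup in reads) at the 5′ end of SLFN11 in each library. The x axis gives the distance in bp from 33701000, the approximate gene start, and negative values lie toward the gene body. Parent 2 h and parent 4 h have the widest peaks (1086 and 1163 bp) and more than 1 summit. Every library has a summit between 233 and 505 bp below the approximate start.

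The SLFN5-side region at 131 kb was the widest of the window, with 1371 bp at 33569334 to 33570704. Its summit pileup was 13 reads in parent DMSO, 49 in parent 2 h and 61 in parent 4 h. In the knockout libraries it was 14, 19 and 13 reads at DMSO, 2 h and 4 h. The parent 2 h and 4 h values stood above all others, while parent DMSO lay among the knockout values. Scaled to the library medians, the levels were 0.650, 1.00 and 1.03 in parent cells and 0.538, 0.633 and 0.542 in knockout cells, so the 3 parent values were all above the 3 knockout values, narrowly so for parent DMSO and knockout 2 h. Within the region, the 3 parent libraries, knockout 2 h and knockout 4 h had their highest summits between 33569972 and 33570019. The summit of knockout DMSO lay at 33569468, and its peak did not touch that of parent DMSO or of knockout 4 h. Parent 2 h and 4 h listed 4 and 5 summits here, knockout 2 h listed 2, and the other libraries listed 1.

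The SLFN5-side region at 60.8 kb lay at 33639865 to 33640569, 36.4 kb beyond the 3′ end of SLFN11, and measured 705 bp. Its summit pileup was 10, 44 and 42 reads in parent DMSO, 2 h and 4 h and 18, 27 and 21 reads in the knockout libraries. The scaled levels were 0.5, 0.898 and 0.712 in parent cells and 0.692, 0.900 and 0.875 in knockout cells, so the genotypes overlapped. It was high within its own list in most libraries, since its fold enrichment exceeded that of 84.6% and 75.7% of peaks in parent 2 h and 4 h and of 57.9%, 84.5% and 82.1% in the knockout libraries. In parent DMSO the corresponding share was 33.8%.

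The SLFN12-side region at 86.7 kb lay at 33787463 to 33787859 and measured 397 bp, with 1 summit in each library. Its summit pileup was 10, 27 and 35 reads in parent DMSO, 2 h and 4 h and 13, 13 and 10 reads in the knockout libraries. Parent 2 h and 4 h were again the highest in reads. After scaling, the levels were 0.5, 0.551 and 0.593 in parent cells and 0.5, 0.433 and 0.417 in knockout cells, which met at the DMSO libraries. The 6 highest summits fell within 33787601 to 33787727.

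**Figure D3:**
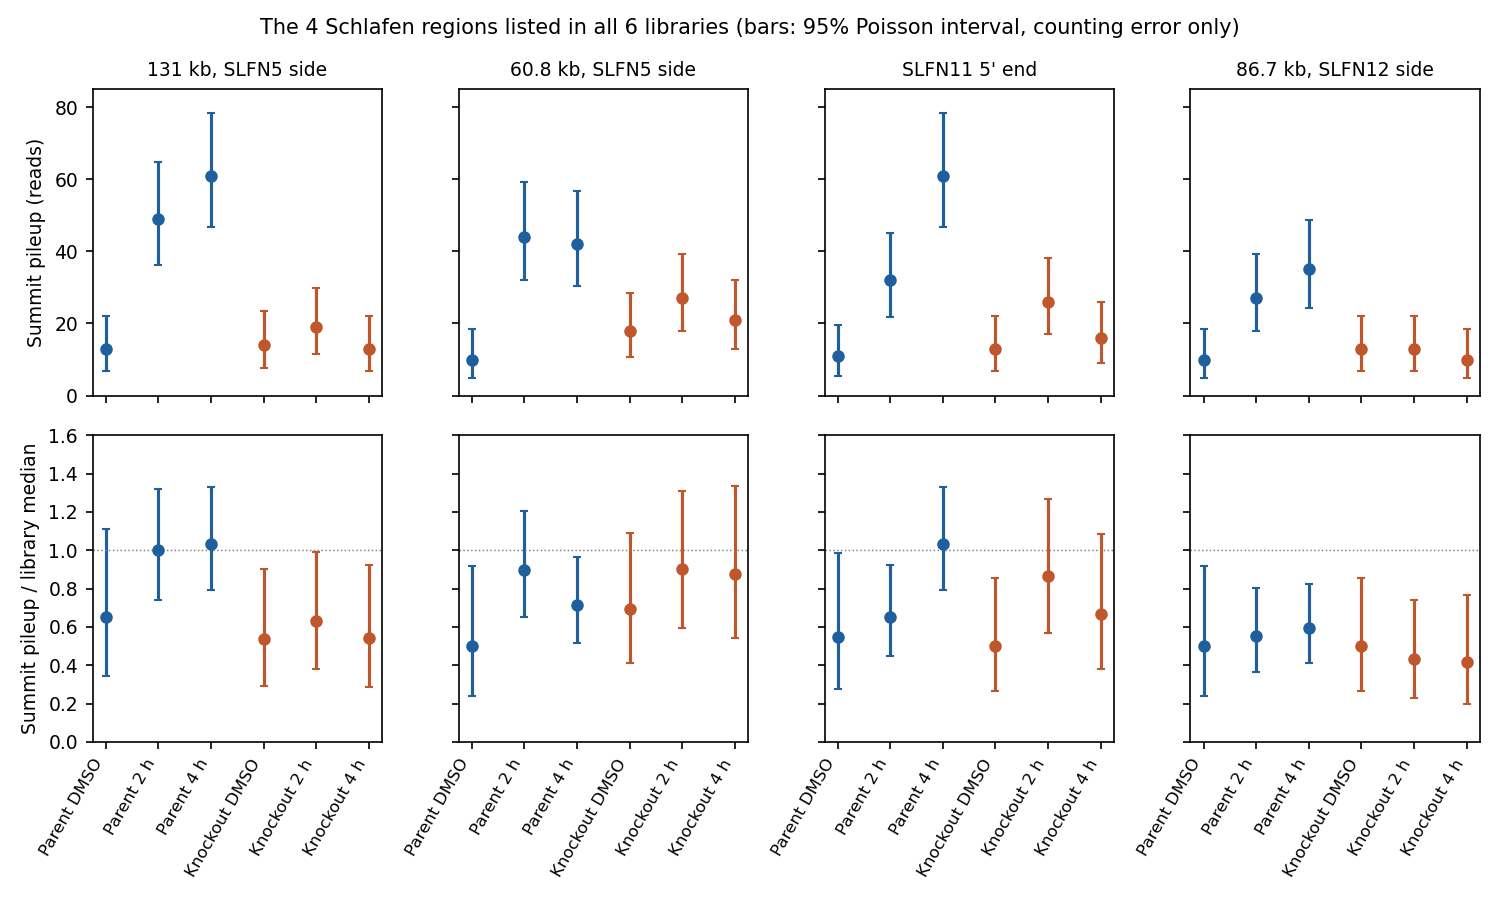
Summit pileup of the 4 shared regions in each library, as reads (upper panels) and divided by the library's median over 11070 shared regions (lower panels; dotted line at 1); bars are 95% Poisson intervals and parent is blue, knockout orange. Parent 2 h and 4 h are highest in reads in all 4 regions, and after scaling the genotypes are separate only at the SLFN5-side region at 131 kb.

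The other 8 regions were listed in 1 or 2 libraries and rested on few reads. On the SLFN12 side at 20.6 kb, upstream of SLFN11, a region at 33721388 to 33721729 was listed only in knockout 2 h (10 reads, interval 4.80 to 18.4) and knockout 4 h (15 reads, 8.40 to 24.7). Its scaled level there was 0.333 and 0.625. At these levels parent 2 h would have had 16.3 to 30.6 reads and parent 4 h 19.7 to 36.9 reads, which is above the 8 reads of the lowest listed peak, yet neither library listed it. Knockout DMSO would have had 8.7 to 16.2 reads and did not list it either, so the region was also missing from a library of the genotype that held it. Parent DMSO would have had 6.7 to 12.5 reads, on both sides of that limit. The limit is the lowest pileup of a whole list, and a call also depends on local background. These absences therefore do not tell a closed region from a missed call.

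A region at 33759523 to 33759875, 58.7 kb away on the SLFN12 side, was listed only in parent 2 h (12 reads, 6.20 to 21.0) and parent 4 h (21 reads, 13.0 to 32.1). The scaled level was 0.245 and 0.356. Parent DMSO would have had 4.9 to 7.1 reads at these levels and the knockout libraries 5.9 to 10.7 reads. With scaling by the library median, its expected reads in these lists thus lay below or around the lowest listed pileup of 8. Expected reads under other scalings were not computed. Next to it, at 33760519 to 33760831, a region was listed in parent 2 h (14 reads) and knockout 4 h (12 reads). It was thus shared between genotypes and not between treatments.

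Just beyond the 3′ end of SLFN11, 3.35 kb from the gene body, a region at 33673307 to 33673652 was listed in the 2 h library of each genotype, with 11 reads in parent and 9 reads in knockout cells. No other library listed it, and at its scaled levels of 0.224 and 0.3 the DMSO libraries and knockout 4 h would have had at most 7.8 reads. Parent 4 h would have had 13.2 to 17.7 reads. The adjusted significance of the knockout peak was low, with a deposited -log10 q of 3.07. By the recorded samples, the lists named 2 h are those of DMSO, so the region is then listed only in DMSO libraries.

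The remaining 4 regions were each listed in 1 library. Parent 2 h alone listed 33601849 to 33602005 on the SLFN5 side (9 reads), 33814127 to 33814324 (11 reads) and 33814918 to 33815341 (13 reads), the last 2 at 113.2 and 114.1 kb on the SLFN12 side. Knockout DMSO alone listed 33571350 to 33571663 (15 reads), on the SLFN5 side at 129.5 kb and next to the 131 kb region. Over the window there were 36 cases of a region not listed in a library. In 16 of them the reads to be had at the region's scaled level were below 8, in 6 they spanned 8, and in 14 they were 8 or more. With scaling by the library median, part of the absences thus lay below the lowest listed pileup. The lowest background varied less between libraries than this median, and the split was not computed with it. Since a call also depends on local background, 8 reads or more are not shown to suffice for one.

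Knockout and parent cells were then compared across the window. The number of peaks was 6.33 ± 3.21 (SD, n = 3) in parent and 5.67 ± 0.577 (n = 3) in knockout libraries, with the 3 treatments standing as the libraries of a genotype. The difference of -0.667 peaks was smaller than the spread among parent libraries (two-sided exact permutation test, not paired by treatment, p = 1). With 3 against 3 libraries this test cannot go below 0.1. Without parent 2 h the difference turned to 1.17 peaks (exact permutation p = 0.4). No window region was particular to 1 genotype in the sense that its 3 lists held it and the other 3 did not, against 0.309% of all regions for parent and 0.715% for knockout. With at least 2 libraries of a genotype, 1 window region was parent-only (the SLFN12-side region at 58.7 kb) and 1 knockout-only (that at 20.6 kb), against 5.24% and 3.36% of all regions.

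At matched treatments, the knockout DMSO list added 2 of its 5 window peaks to those of parent DMSO (35.2% of all its peaks were added) and lacked 1 of the 4 parent peaks (11.6% of all parent peaks were missing). The lacking peak and 1 added one lie side by side in the 131 kb region. At 2 h the knockout list lacked 5 of the 10 parent peaks (26.4% over all peaks) and added 1 of 6 (15.4%). At 4 h it lacked 1 of 5 (30.2%) and added 2 of 6 (19.4%). The Wilson 95% interval of the 5 missing peaks of 10 ran from 23.7 to 76.3% and held the share over all peaks. It treats neighbouring peaks of a pair of libraries as independent, so it cannot decide whether the window differs from the whole list. By the recorded samples the same pairs of lists are compared, as 4 h, DMSO and 2 h.

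The scaled pileup of the 4 shared regions was tested between genotypes with limma over all 11070 shared regions, with treatment as a block. The median difference over all regions was 0.04 on the log2 scale, and the SD was 0.37. The SLFN5-side region at 131 kb was lower in knockout cells by a log2 difference of -0.62 ± 0.23 (SE), with a mean log2 level of -0.81 ± 0.13 (SD, n = 3) in knockout and -0.19 ± 0.37 (n = 3) in parent cells. Only 0.668% of all regions had a difference as low or lower. Its unadjusted limma p was 0.0311 and its Benjamini-Hochberg adjusted p was 0.674, so the difference did not pass. Its groups did not overlap, as in 5.63% of all regions with knockout lower and 6.25% with knockout higher. The spread among the parent libraries (0.37) was large beside the difference. At DMSO, the parent and knockout values come from peaks of this region that did not touch each other.

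The 5′ end of SLFN11 differed by -0.12 ± 0.26 (limma adjusted p = 0.925), with mean log2 levels of -0.48 ± 0.47 in parent and -0.60 ± 0.40 in knockout cells (SD, n = 3 each, limma). The difference was smaller than the spread in either genotype, and it turned to 0.14 without parent 4 h and to 0.09 with the deposited fold in place of pileup. The region at 60.8 kb differed by 0.26 ± 0.21 (limma adjusted p = 0.771) and that at 86.7 kb by -0.29 ± 0.22 (limma adjusted p = 0.747). Of all 11070 regions, 0 passed an adjusted p of 0.05 (0% higher and 0% lower in knockout cells), while 797 (7.2%) had an unadjusted limma p under 0.05, among them 1 of the 4 Schlafen regions. Without parent DMSO, or without knockout DMSO, which both leave 2 complete treatments, 1489 regions passed, with 0 of the Schlafen regions among them. Scaling by the lowest background instead of the median moved the median difference of all regions to -0.59. The 4 Schlafen regions moved with it, to -1.25 at 131 kb, -0.37 at 60.8 kb, -0.75 at the 5′ end of SLFN11 and -0.91 at 86.7 kb, so that at 60.8 kb the sign turned while the region stayed above the median of all.

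**Figure D4:**
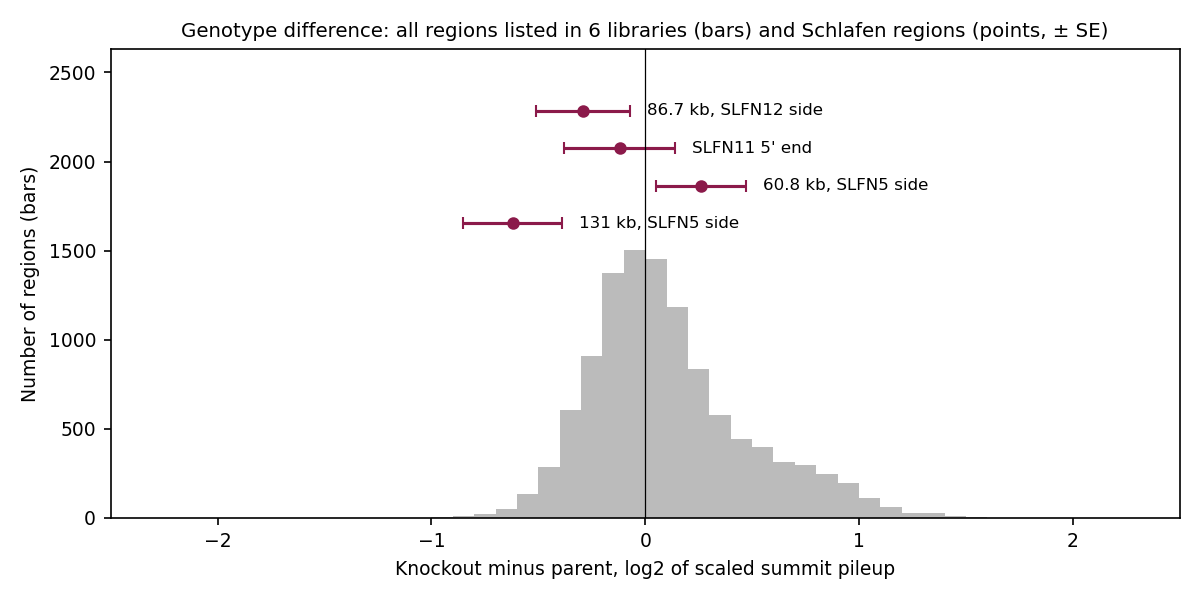
Number of regions (bars) by the difference of knockout minus parent in log2 scaled pileup, over the 11070 regions listed in all 6 libraries, with the 4 Schlafen regions as points with SE placed above the bars at arbitrary heights. The SLFN5-side region at 131 kb lies at -0.62, in the lower tail of the bars, and the 5′ end of SLFN11 lies at -0.12, near their middle.

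Treatment was compared within each genotype. Relative to parent DMSO, parent 2 h added 6 of its 10 window peaks (45.4% of all its peaks were added) and lacked 0 of 4 (7.45%). Parent 4 h added 1 of 5 (42.8%) and lacked 0 of 4 (11.2%). In knockout cells, the 2 h list added 2 of 6 peaks (23.1%) and lacked 1 of 5 (16.5%), and the 4 h list added 3 of 6 (20.6%) and lacked 2 of 5 (21.4%), with 1 of each inside the 131 kb region. The Wilson interval for the 6 added peaks of 10 in parent 2 h was 31.3 to 83.2%, and that for the 1 of 5 in parent 4 h was 3.62 to 62.4%. Each held the share over all peaks, but so few neighbouring peaks from a pair of libraries cannot decide whether the window differs. In lists shortened to 14205 peaks each, the window held 4, 4 and 5 peaks in the parent and 2, 4 and 4 in the knockout libraries, and parent 2 h added 0.

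By the recorded samples, these directions turn. Parent 2 h camptothecin then adds 0 of 5 window peaks (13.8% over all peaks) and lacks 5 of 10 (20.9%), and parent 4 h adds 0 of 4 (7.45%) and lacks 6 of 10 (45.4%). Knockout 2 h adds 1 of 6 (16.5%) and lacks 1 of 6 (24%), and knockout 4 h adds 1 of 5 (16.5%) and lacks 2 of 6 (23.1%).

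At the shared regions, the scaled pileup at the 5′ end of SLFN11 was higher than in DMSO in both genotypes at both times. The log2 difference was 0.25 at 2 h and 0.91 at 4 h in parent cells and 0.79 and 0.42 in knockout cells. Larger differences were found in 24.4% of all shared regions at 2 h and 2.27% at 4 h in parent cells, and in 1.17% and 16% in the knockout libraries. For the region at 131 kb, the corresponding differences were 0.62 and 0.67 in parent and 0.23 and 0.01 in the knockout. Knockout DMSO and knockout 4 h listed peaks there that did not touch each other, so the 0.01 compares separate peaks. At 60.8 kb the differences were 0.84 and 0.51 in parent and 0.38 and 0.34 in the knockout. The region at 86.7 kb differed by 0.14 and 0.25 in parent and by -0.21 and -0.26 in the knockout.

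None of the 4 regions reached a 2-fold difference in any of these comparisons. Over all shared regions, a 2-fold higher level was found in 0.587% and 1.51% at 2 h and 4 h in parent and in 0.334% and 0.75% in knockout cells. A 2-fold lower level was found in 9.17% and 17.9% in parent and in 0.524% and 0.352% in knockout cells. Shared regions had to be listed in every library, and the lowest listed pileup was 8 reads. Beside medians of 20 reads in parent DMSO and 59 in parent 4 h, scaled levels could fall less far in parent DMSO. The 4 Schlafen regions had 10 to 13 reads there. How much this floor adds to the share of lower regions in parent cells was not tested. By the recorded samples, the log2 differences at the 5′ end of SLFN11 are 0.66 at 2 h and -0.25 at 4 h in parent and -0.38 and -0.79 in the knockout. For the region at 131 kb they are 0.05 and -0.62 in parent and -0.23 at both times in the knockout. The region at 60.8 kb is at -0.34 and -0.84 in parent and at -0.04 and -0.38 in the knockout, and that at 86.7 kb is at 0.11 and -0.14 in parent and at -0.06 and 0.21 in the knockout.

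With both genotypes in 1 additive limma fit, 4 h of camptothecin differed from DMSO at the 5′ end of SLFN11 by 0.66 ± 0.32 (SE, limma adjusted p = 0.80) and 2 h by 0.52 ± 0.32 (limma adjusted p = 0.994). At the SLFN5-side region at 60.8 kb the differences were 0.61 ± 0.26 at 2 h (limma adjusted p = 0.994) and 0.42 ± 0.26 at 4 h (limma adjusted p = 0.80). For the regions at 131 kb and 86.7 kb they were 0.43 and -0.03 at 2 h and 0.34 and -0.01 at 4 h, with adjusted limma p between 0.803 and 0.997. The 131 kb values include knockout DMSO, whose peak did not touch that of parent DMSO or of knockout 4 h. Over all 11070 regions, 0% were higher and 0% lower past an adjusted p of 0.05 at either time, and 244 (2 h) and 523 (4 h) had an unadjusted limma p under 0.05, with 0 of the 4 Schlafen regions among them. Without knockout DMSO, 944 regions passed at 2 h and 1313 at 4 h, and without parent DMSO 1 passed at 2 h, again with 0 Schlafen regions. Recorded placement turned the sign for all 4 regions at 4 h, to -0.52 at the 5′ end of SLFN11. Whether the treatment effect differs between genotypes was not tested, since 6 libraries in 6 groups leave no spread for it.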

How the data were processed

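The members and lists were chosen with earlier results of these data known. The submitters' processing notes name, with no roles, MACS2 2.1.2, BWA 0.7.17, Trim Galore 0.6.2, Picard 2.9.2, Trimmomatic 0.39, SAMtools 1.8 and the hg19 build. How reads were shifted or extended, and how duplicates were handled, is not given in the sources used here, and such steps can move peak edges. Lists were called per library. The authors deposited, per peak, a fold enrichment (a ratio of the summit to local background), a -log10 p, a -log10 q and a score of 10 times the latter. Lists end at a q of 0.01. Positions are counted from 1.

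Entries on chromosomes 1 to 22 and X were kept (0.445 to 0.728% left out), and entries overlapping within a list were merged. Lists were compared by an overlap of at least 1 bp, and regions are peaks merged over libraries. Fold and p fix the summit pileup under a Poisson model; it was whole within 0.02 for at least 99.951% of entries per list. A region's pileup is its highest summit. Scaled pileups went, as log2, into limma 3.58.1 (R 4.3.3) with genotype and treatment as terms and Benjamini-Hochberg adjustment over all shared regions. Libraries of different treatments stood as replicates of a genotype, so p-values measure only their spread. Shares carry Wilson intervals and pileups exact Poisson intervals; amplified reads are not independent molecules. Merging, pileup recovery and the limma fit were tested on simulated data. The counts simulated for limma had Poisson spread only, so that test does not cover spread among libraries beyond counting error. Files were placed by the library code that list and sample title share; placement by recorded sample, a stricter -log10 q (5 or more), 50% overlap, lists of equal length, unmerged entries, summit position, other scalings and leaving out each library were alternatives. All 12 regions are named, as the rule allowed for up to 25. T cell identity was not checked, since no hg19 annotation was used here. Python 3.11.15 with scipy 1.17.1 was used.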

Additional observations from a re-analysis of the deposited data

Results flagged for a closer look

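At the SLFN12-side region at 86.7 kb, the treatment differences had opposite signs in the genotypes by the title codes. The log2 scaled pileup differed from DMSO by 0.14 at 2 h and 0.25 at 4 h in parent cells and by -0.21 and -0.26 in knockout cells. By the recorded samples the differences are 0.11 and -0.14 in parent and, for the knockout, -0.06 and 0.21, again opposite at both times and with the signs at 4 h exchanged. With 1 library per group the difference between genotypes was not tested, and the knockout values rest on 10 to 13 reads.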

How the results depend on the processing

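Of 277 alternative values, 215 kept their direction and their side of the threshold. For counts of peaks, that means within 1.5 times. In none of the alternatives did a Schlafen region pass an adjusted limma p of 0.05; the lowest was 0.0978, for the 131 kb region between genotypes (-0.80) without a DMSO library of either genotype. With only entries of -log10 q of at least 5, 0 window peaks remained in parent DMSO, 2 in knockout DMSO and 3 in knockout 4 h. Parent 4 h then added 5, and knockout 2 h and 4 h lacked 0 and 1 of the DMSO peaks. Between genotypes, the knockout lists lacked 0 at DMSO, 3 at 2 h and 3 at 4 h, and added 0 at 2 h and 1 at 4 h. No Schlafen region was then listed in all 6 libraries, so the limma values could not be had for them. With lists of equal length, the window held 4 peaks in parent 2 h and 2 in knockout DMSO; parent 2 h added 0, knockout 2 h and 4 h lacked 0 and 1, and between genotypes 0 were added at DMSO and 2 h, while 2, 0 and 3 were missing at DMSO, 2 h and 4 h. With entries as deposited, the window held 18 in parent 2 h and 11 in parent 4 h. With the recorded placement, parent lists added 0 at both times and lacked 5 and 6, knockout lists added 1 at both times, and between genotypes 1 and 2 were added and 5 and 1 missing at DMSO and 2 h. Leaving out each library in turn, the difference in peak number ran from -1.83 to 1.17, parent-only and knockout-only window regions each from 0 to 1, and regions past the limma threshold from 0 to 1489 for genotype, 0 to 944 for 2 h and 0 to 1313 for 4 h. The cause was not tested.

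Scaling by the lowest background shifts all regions alike: the median genotype difference went from 0.04 to -0.59, and the Schlafen regions went to -1.25, -0.37, -0.75 and -0.91 (131 kb, 60.8 kb, 5′ end of SLFN11, 86.7 kb), so the turn of sign at 60.8 kb is this common shift. At the 5′ end of SLFN11 the genotype difference turned to 0.09 with the deposited fold and to 0.14 without parent 4 h or without knockout 4 h (range over left-out libraries -0.39 to 0.14). The treatment difference at 86.7 kb, near 0, turned to 0.62 (2 h) and 0.64 (4 h) with the lowest background, where the medians of all regions were 0.62 and 0.63, to 0.23 and 0.24 with quantile normalisation, and to 0.18 and 0.10 with the deposited fold. It also turned to 0.18 and 0.21 without knockout DMSO, to 0.01 (2 h) without knockout 2 h and to 0.16 (4 h) without knockout 4 h, and ranged from -0.25 (2 h) and -0.22 (4 h) upward over left-out libraries. Recorded placement gave -0.09, -0.19 and 0.02 at 2 h for the regions at 131, 60.8 and 86.7 kb. At 4 h it gave -0.43, -0.61, -0.52 and 0.03 for those at 131 kb, 60.8 kb, the 5′ end of SLFN11 and 86.7 kb. Peaks of regions listed in 1 or 2 libraries rest on 9 to 21 reads, so their presence is uncertain. No pairing beyond treatment was possible, because there is 1 library per group and the replicate number pairs nothing else. Treatment is in the limma fit but not in the permutation test of peak number.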
